A study of Mus musculus with 12 samples.

Results

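Regulatory T (Treg) cells that lacked both Foxp3 and Rictor were compared with WT Treg cells across all genes. The comparison used 4 double-deficient and 4 WT RNA-seq libraries, chosen by the genotype in their labels, of 12 libraries in the series; the other 4 were Foxp3-deficient without the Rictor deletion. These 4 show where the double-deficient cells differ, and they also entered the fit, so that they bear on its filter and its estimate of spread; a fit of only the WT and double-deficient libraries called 2811 genes higher and 2826 lower, against 2084 and 2215 with all 12. All cells were splenic CD4+ cells double-sorted by a red (RFP) or yellow (YFP) reporter from female mice of 4 weeks. The mice were Foxp3ΔEGFPiCre/RFP R26YFP, and Foxp3ΔEGFPiCre/+ RictorΔ/Δ R26YFP. The series title assigns the Foxp3RFP allele to WT cells, Foxp3ΔEGFPiCre to Foxp3-deficient cells, and Foxp3ΔEGFPiCre with RictorΔ/Δ to double-deficient cells. Cre was therefore expressed from the disrupted Foxp3 locus itself, and the female carriers were heterozygous at Foxp3, an X-linked gene, so that they also held cells with an intact Foxp3 allele. The labels do not tie libraries to individual mice or to a reporter colour, so each p-value here measures a spread between samples that may be technical. Genotype and reporter cannot be told apart. Of the mice named, only the first carry the RFP allele and only the second the Rictor deletion. Double-deficient cells thus also differ from WT and Foxp3-deficient cells by mouse line, and genotype and line cannot be told apart.

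Foxp3 is the transcription factor that defines Treg cells, which restrain immune responses, and it keeps a program of surface receptors and suppressive molecules active while holding down cytokine genes of helper T cells. Rictor is the subunit that defines mTOR complex 2, a kinase complex that activates AKT, SGK1 and several protein kinases C downstream of growth factor and antigen receptors. AKT in turn restrains FOXO transcription factors, which in T cells favour genes of the resting state and of lymph node homing.

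Levels are read counts per gene scaled to a common library size (CPM), and they are listed in the order WT 1, 3, 4, 5 and double-deficient 2, 3, 4, 5 wherever 4 values are given. Changes are log2 fold changes of double-deficient over WT from edgeR's quasi-likelihood test, with their standard error (SE) and a p adjusted by Benjamini and Hochberg's method over all genes tested; a gene was called where the adjusted p was under 0.05. Libraries held 15769737 to 26114044 reads in genes in WT and 18742434 to 23327240 in double-deficient cells. The first principal component (38.5% of the variance) ran from −52.0 to −44.9 in WT and from 37.3 to 46.3 in double-deficient libraries. In double-deficient libraries 5.004% ± 0.366 of reads lay outside genes against 8.18% ± 0.507 in WT (mean ± SD, n = 4 each), and 32.1% ± 0.854 had no unique alignment against 27.03% ± 1.26. Each of these differences reached p = 0.0286 by exact permutation (two-sided), which is the lowest value possible with 4 against 4 libraries (adjusted p = 0.0357 over 5 measures). Their part in the results was not tested.

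The double-deficient libraries also differed from WT by transcript length. The slope of a library's log2 CPM, relative to WT, per doubling of exonic length was −0.037, −0.075, −0.068 and −0.099 in double-deficient 2, 3, 4 and 5, and between −0.011 and 0.011 in the WT libraries. No double-deficient slope overlapped the WT slopes (exact two-sided permutation p = 0.0286, adjusted p = 0.0357 over 5 measures). The median log2 fold change went from 0.15 among the shortest genes to −0.20 among the longest, in 5 classes of equal size. Among the longest genes, 274 were called higher and 814 lower. With a smooth trend in length and GC content removed from every library, those medians became 0.07 and −0.01, and the longest class had 518 genes higher and 408 lower. Counts over gene lists below are therefore given for both fits where these differ, and "rose" or "fell" is used of genes called in the same direction in both.

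**Figure D1:**
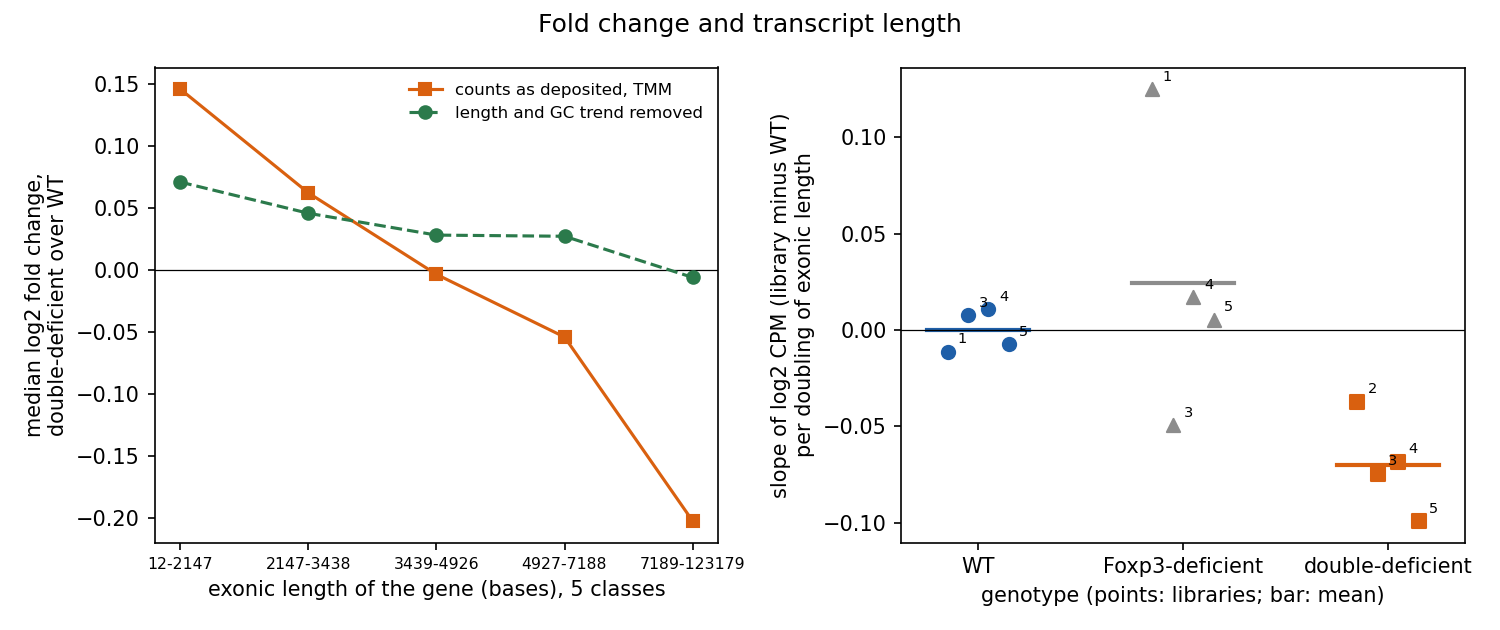
Left, median log2 fold change of double-deficient over WT (y) in 5 classes of exonic length (x), with counts as deposited (squares) and with the length and GC trend removed (circles). Right, the slope of each library's log2 CPM on log2 length relative to WT (points are libraries with their replicate number, bars are means, n = 4); the 4 double-deficient slopes lie between −0.099 and −0.037, below every WT slope.

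The table lists 25189 genes, and 13196 of them passed the filter on low counts. Of the 13196, 2084 were called higher in double-deficient cells (15.8%) and 2215 lower (16.8%), so 48.5% of calls were higher. With the trend removed, 2476 of 13074 genes were higher (18.9%) and 1694 lower (13.0%), and 59.4% of calls were higher. In both fits, 1941 genes rose (14.8%) and 1598 fell (12.2%); 0 genes were called in opposite directions. Both fits together with a change of at least 2-fold left 532 genes higher (4.07%) and 633 lower (4.84%). All 4 double-deficient libraries lay above all WT libraries in 2706 of the 13196 genes (20.5%) and below them in 2536 (19.2%). These shares, and the median log2 fold change of all genes of −0.03 (0.03 with the trend removed), are the background against which the counts below are to be read.

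Foxp3 (chromosome X, 7573644 to 7595245, GRCm38) stood at 705, 580.3, 690.2 and 556 CPM in WT and 122, 91.8, 98.8 and 95.7 CPM in double-deficient libraries. Every double-deficient library lay far below every WT library, at a level like the 118 ± 22.8 CPM of Foxp3-deficient cells. The fall was −2.63 (SE 0.14, adjusted p = 2.95e-09; −2.55 with the trend removed). Rictor (chromosome 15, 6708379 to 6800401) stood at 146, 146, 168 and 133 CPM in WT and 157, 130.1, 131 and 145 CPM in double-deficient libraries, and the groups overlapped. Its difference was −0.08 (SE 0.11, adjusted p = 0.626), and 0.20 with the length and GC trend removed (adjusted p = 0.0928). With a trend in length alone removed it reached 0.27 in the opposite direction (adjusted p = 0.0243); Rictor has 16930 exonic bases, in the longest class. The counts cover the whole gene and cannot separate deleted from retained exons, so this level does not check the label of the deletion.

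Most of the Treg signature was lower in double-deficient cells. In bulk samples, here and below, a change in the number of cells that carry a transcript and a change in its amount per cell cannot be told apart. Of 36 tested members 22 were called lower and 5 higher (21 and 6 with the trend removed), with a median of −0.89 (−0.77 with the trend removed). Tnfrsf9, the costimulatory receptor 4-1BB, stood at 344, 329.7, 363 and 393 CPM in WT and 82.1, 80.6, 75.3 and 72.5 CPM in double-deficient libraries. These values do not overlap, and the fall was −2.20 (SE 0.10, adjusted p = 8.15e-10). Lrrc32, which encodes GARP, the surface anchor of latent TGF-beta, fell from 513, 357, 461 and 346 to 61.5, 69.6, 74.9 and 84.9 CPM, again without overlap (−2.53, SE 0.27, adjusted p = 3.73e-05). Itgb8, the integrin chain that activates latent TGF-beta, went the same way (32.6 ± 6.23 to 4.94 ± 0.338 CPM, −2.72). Ikzf2, the transcription factor Helios, fell by 1.70 and Il2ra, which encodes CD25 of the interleukin-2 receptor, by 1.04. Tnfrsf1b, the TNF receptor 2, fell by 1.27, and every double-deficient library (246, 264, 242 and 249 CPM) lay below every WT library (625, 509.8, 641 and 629 CPM).

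Several Treg genes did not follow. Ctla4, the inhibitory receptor that binds CD80 and CD86, stood at 349 ± 23.3 CPM in WT and 347 ± 21.01 CPM in double-deficient cells (−0.01, adjusted p = 0.976). Tnfrsf18, the receptor GITR, stood at 289 ± 27.5 and 270.3 ± 49.4 CPM (−0.10, adjusted p = 0.631). In neither gene did the difference from WT pass the test. The 5 members called higher in both fits were Socs2, a feedback inhibitor of cytokine signalling, Fgl2, a secreted suppressive protein, the cytokine gene Il10, the inhibitory receptor gene Lag3, and Epsti1. Socs2 rose from 39.1, 34.05, 35.9 and 39.1 to 103, 137, 125 and 121 CPM (1.71, SE 0.15, adjusted p = 9.50e-07). Fgl2 stood at 51.5, 43.96, 66.8 and 50.8 CPM in WT and 79.7, 108, 110.4 and 128 CPM in double-deficient libraries, without overlap (0.999, SE 0.16, adjusted p = 0.000297). Il10 stood at 3.01, 9.91, 8.19 and 13.1 CPM in WT and 25.99, 28.7, 48.2 and 60.8 CPM in double-deficient libraries (2.25, SE 0.59, adjusted p = 0.0141). All 4 double-deficient libraries were above the highest WT library in both genes.

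Against Foxp3-deficient cells, measured in the same fit, 20 of these 36 genes were higher in double-deficient cells and 0 lower (20 and 1 with the trend removed), where 13.9% of all genes were higher and 13.3% lower (10.8% and 9.66% with the trend removed). The 2 comparisons share the double-deficient libraries. Tnfrsf18 was higher by 1.07 (adjusted p = 0.000236; 128 ± 23.6 CPM in Foxp3-deficient cells), Nrp1, a receptor common on thymus-derived Treg cells, by 0.94 (adjusted p = 0.000298) and Gpr83, an orphan receptor of Treg cells, by 1.19 (adjusted p = 3.24e-05). Ctla4 missed the threshold in that comparison (0.50, adjusted p = 0.0564; 246 ± 95.4 CPM in Foxp3-deficient cells). Foxp3 itself did not pass the test between the deficient groups (double-deficient minus Foxp3-deficient −0.21, adjusted p = 0.246).

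**Figure D2:**
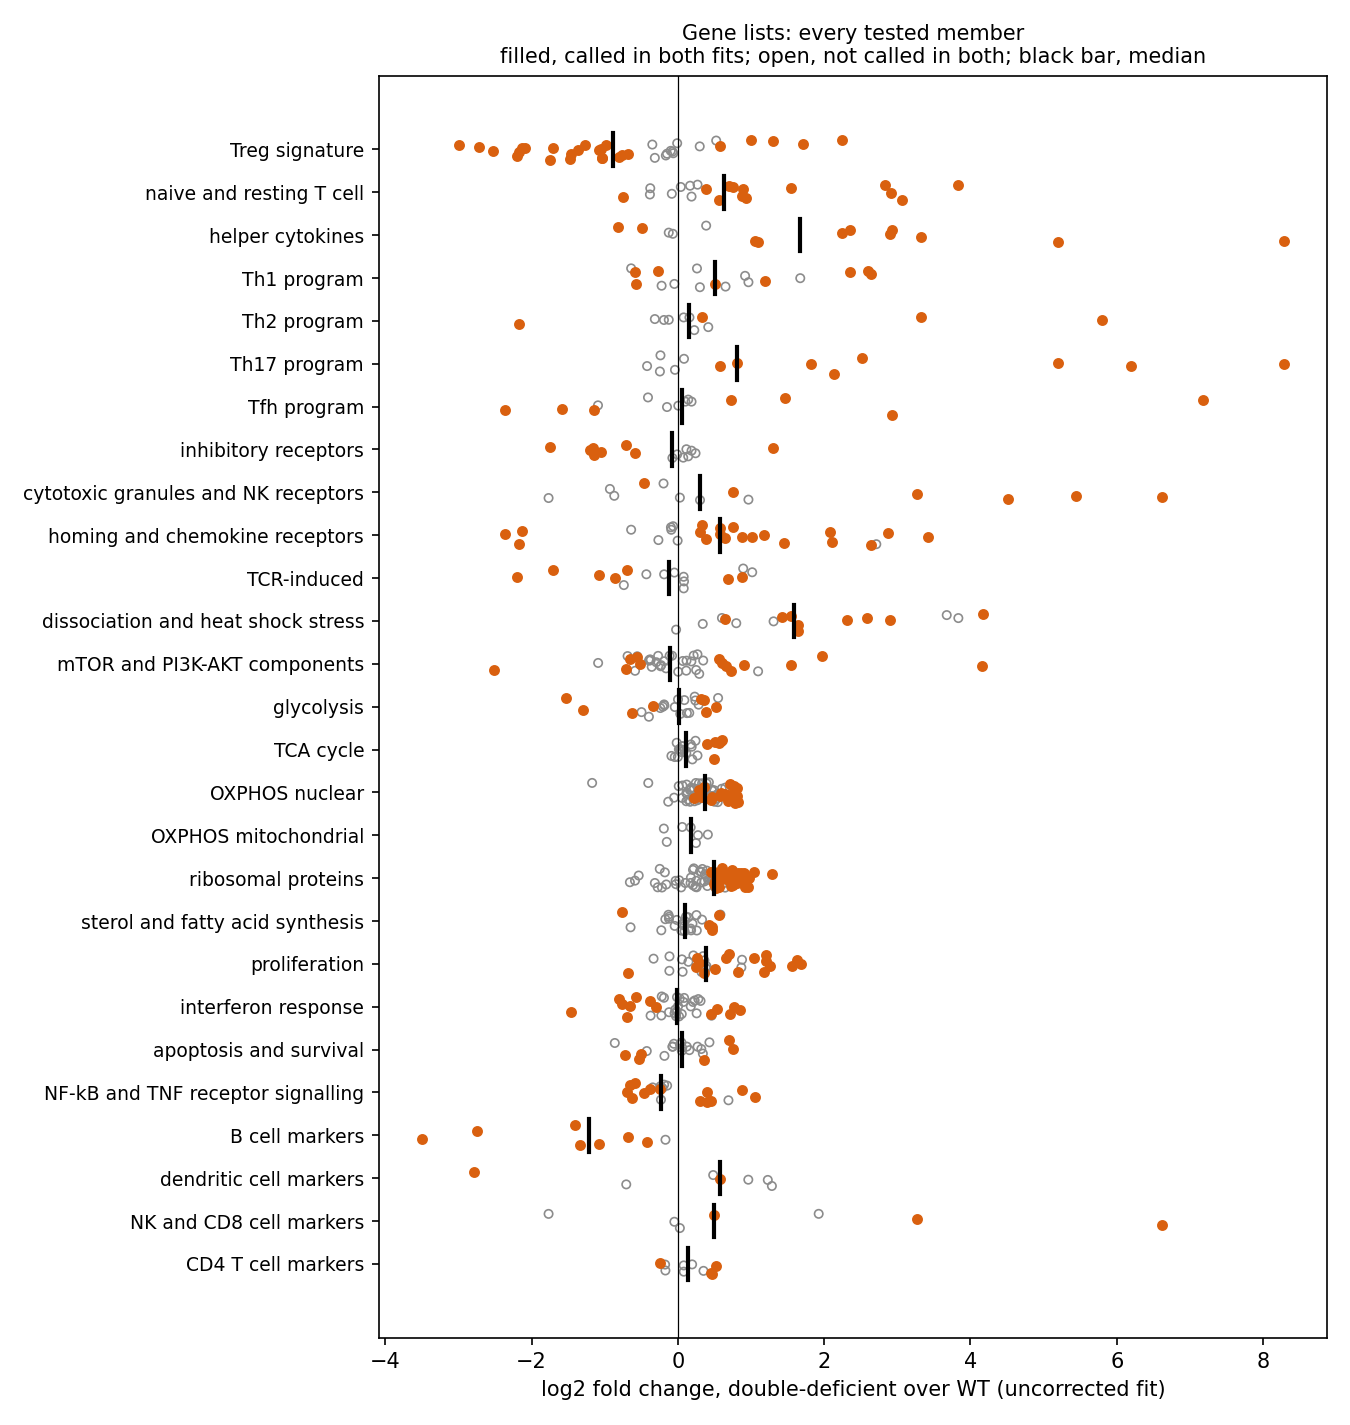
Log2 fold change of double-deficient over WT (x, uncorrected fit) for every tested member of the lists with at least 7 tested members (y). Filled points were called in the same direction in both fits, open points were not, and black bars are medians; the Treg signature lies mostly below 0 (median −0.89) and the helper cytokine list mostly above (median 1.67).

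The largest rises and falls were taken among genes that were called in both fits, had non-overlapping groups and averaged 10 CPM or more. The largest rises included genes for secreted factors and receptors. Wnt5b, a secreted Wnt ligand, stood at 0.1703, 0, 0.477 and 0.0421 CPM in WT and 24.5, 28.5, 35.6 and 36.9 CPM in double-deficient libraries (7.27, SE 0.42, adjusted p = 8.66e-09; 8.69 without WT 4). Ccl20, the chemokine that attracts CCR6-bearing cells, stood at 0.341, 0.308, 0.367 and 0.295 and 15.7, 33.4, 29.04 and 19.6 CPM (6.19, SE 0.54, adjusted p = 2.11e-06). Both genes were close to silent in every WT library and well detected in every double-deficient library. Plac8, a small cysteine-rich protein, rose from 1.93, 1.17, 1.03 and 1.601 to 74.3, 94.7, 77.4 and 69.2 CPM (5.79). Emp1, a membrane protein of the PMP22 family, rose from 2.33, 2.28, 2.94 and 2.23 to 88.2, 93.1, 118 and 108 CPM (5.37). Pcsk1, a protease that processes prohormones, Ggt5, which cleaves glutathione conjugates such as leukotriene C4, Cysltr1, the receptor for leukotriene D4, and Igfbp7, a secreted binding protein, rose by 5.33, 4.46, 4.38 and 4.34. Each of these 8 genes had an adjusted p of 7.80e-06 or less. The largest value of all belonged to Eno1b, at 7.53, 65.1, 35.4 and 30.3 CPM in double-deficient and 0.0568, 0.185, 0.184 and 0.337 CPM in WT libraries (7.40). Eno1b is nearly identical to the glycolytic enzyme gene Eno1, so reads may be split between them and its level is uncertain; Eno1 did not pass the test (0.09, adjusted p = 0.636).

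The largest falls were led by Rab6b, a small GTPase of Golgi transport, at 57.05, 65.9, 62.1 and 59.01 CPM in WT and 2.13, 0.406, 7.17 and 3.28 CPM in double-deficient libraries (−4.23, SE 0.50, adjusted p = 0.000101; −5.003 without double-deficient 4). The double-deficient values spread widely but all lie below the lowest WT value. Klrg1, an inhibitory receptor of differentiated lymphocytes, stood at 75.04, 55.8, 76.2 and 58.5 and 6.34, 5.36, 6.65 and 15.1 CPM (−2.997, SE 0.83, adjusted p = 0.0206), a call lost without double-deficient 2, 3 or 4. Tnfrsf8, the receptor CD30, fell by 2.90, and so did Abcb1a, a drug efflux pump (83.8, 86.4, 77.4 and 86.6 to 13.1, 12.3, 9.602 and 9.63 CPM, adjusted p = 4.42e-10). Axl, a receptor tyrosine kinase, fell by 2.87, and Cd74, the invariant chain of MHC class II, fell from 95.7, 92.7, 102 and 114 to 12.7, 15.9, 15.2 and 14.9 CPM (−2.78, adjusted p = 5.08e-09). Susd2 and Naip5 fell by 2.64 and 2.62, Naip5 being one of several near-identical Naip copies, so that its count is uncertain. Ttn, the gene of the muscle protein titin and a very long transcript, differed between the fits: it fell by 2.77 as deposited and by 1.54 with the trend removed (adjusted p = 7.30e-05 and 0.000526).

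**Figure D3:**
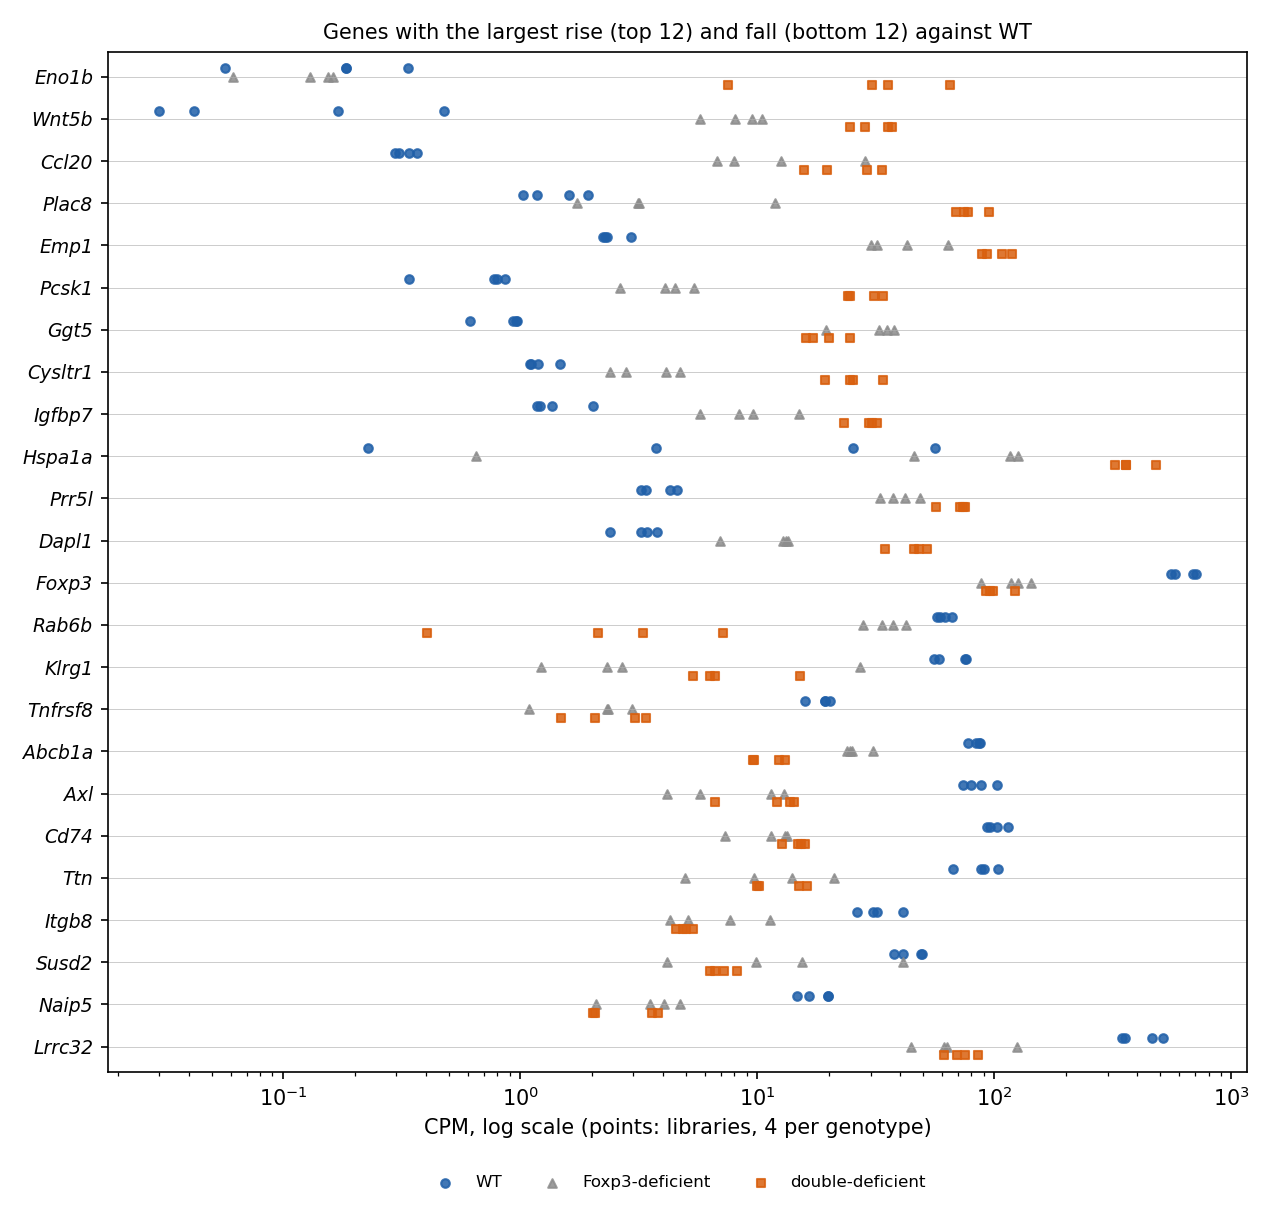
CPM on a log axis (x) of the 12 genes with the largest rise and the 12 with the largest fall against WT (y), one point per library, 4 per genotype (circles WT, triangles Foxp3-deficient, squares double-deficient); a CPM of 0 is drawn at 0.03. WT and double-deficient points do not overlap in any row, which the choice of these genes required.

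Helper cytokine genes were higher more often than lower. Of 14 tested, 9 were called higher and 2 lower in both fits, with a median of 1.67 (1.54 with the trend removed). The lower count was 1 without WT 5 or double-deficient 2. Il4, the signature cytokine of Th2 cells, stood at 0.681, 0.554, 0.955 and 1.47 CPM in WT and 4.95, 8.52, 9.696 and 14.6 CPM in double-deficient libraries (3.32, SE 0.44, adjusted p = 6.21e-05). Cd40lg, the ligand by which T cells help B cells, rose from 49.9, 56.8, 52.7 and 52.7 to 117, 100.4, 112 and 113 CPM (1.06, SE 0.11, adjusted p = 6.73e-06), and Tnfsf8, the CD30 ligand, from 98.03, 111, 110.1 and 109 to 234, 232, 208 and 239 CPM (1.10). The groups did not overlap in these 3 genes. Il17a gave 454 reads over the 4 double-deficient and 1 read, from WT 4, over the 4 WT libraries; the ratio was 469.7 (95% interval of the counts 83.9 to 18591), and Il17f gave 54 reads against 1 (55.9, 9.61 to 2247). Il5 gave 40 reads against 0, at least 13.8-fold higher when WT is set to 3 reads per group as its floor, and Il22 gave 18 against 0, at least 6.21-fold; both had too few reads to be tested. Ifng, the Th1 cytokine, stood at 60.5 ± 17.97 against 11.9 ± 4.56 CPM (2.35, adjusted p = 0.0330), and Lta, which encodes lymphotoxin, fell by 0.81. With a stricter filter, under which several of these low genes are not tested, 5 were called higher.

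The programs of the helper lineages moved unevenly. In the Th17 program 8 of 13 genes were called higher in both fits. Il23r, the interleukin-23 receptor, rose from 0.581 ± 0.1204 to 3.36 ± 0.433 CPM (2.51). The 2 genes called lower there, Stat3 and Il6ra, lost the call with the trend removed (adjusted p = 0.0555 and 0.863), and the lower count was 1 when any single library other than WT 5 or double-deficient 2 was left out. In the Th1 program 5 of 17 were called higher and 3 lower (6 and 4 with the trend removed). Cxcr6, a chemokine receptor of effector cells, stood at 30.6, 20.99, 38.4 and 27.04 and 144, 181, 173 and 235 CPM (2.64, adjusted p = 0.000283) and Il18r1, an interleukin-18 receptor chain, rose by 1.20. Tbx21, the Th1 transcription factor T-bet, stood at 24.97 ± 3.67 and 47.3 ± 8.16 CPM (adjusted p = 0.188). In the Th2 program 3 of 11 rose (Il4, Plac8 and Ccr4) and Ccr8, a chemokine receptor of Treg and Th2 cells, fell by 2.18. With the trend removed 5 were called higher and 1 lower, and without double-deficient 5 the lower count was 2. The call of Ccr4 (0.33) was lost without WT 3, WT 4 or double-deficient 3.

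Genes of follicular helper T cells split. Bcl6, the transcription factor of these cells, stood at 39.6, 43.6, 42.05 and 49.8 CPM in WT and 14.4, 14.8, 15.5 and 13.5 CPM in double-deficient libraries, a fall without overlap (−1.59, SE 0.14, adjusted p = 1.13e-06). Cxcr5, the receptor that guides them into B cell follicles, fell from 113, 97.3, 120.5 and 114 to 13.7, 21.4, 21.5 and 29.9 CPM (−2.36, SE 0.33, adjusted p = 0.000297). In contrast, Slamf6, an adhesion receptor, rose from 318, 335, 313 and 336 to 899, 971, 856 and 873 CPM (1.47, SE 0.07, adjusted p = 1.33e-09), and Il21, the cytokine that supports germinal centre B cells, rose from 2.21 ± 1.07 to 17.4 ± 8.06 CPM (2.93). In all, 4 of 14 were called higher and 5 lower, or 4 and 3 with the trend removed, the 3 being Bcl6, Cxcr5 and Pdcd1; the lower count was also 3 without WT 3, WT 4 or double-deficient 3, 4 or 5. Ppp1r14c gave 75 reads against 0, at least 25.9-fold higher.

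Of 20 genes of naive and resting T cells 12 were called higher and 2 lower (15 and 1 with the trend removed), with a median of 0.63 (0.70 with the trend removed). Igfbp4, which binds insulin-like growth factors, rose from 204, 196, 202 and 229.7 to 1396, 1542, 1509 and 1499 CPM (2.84, SE 0.15, adjusted p = 2.95e-09). Dapl1 rose from 3.24, 3.76, 2.39 and 3.41 to 34.6, 51.99, 45.9 and 48.1 CPM (3.83), and Pde3b, a cyclic nucleotide phosphodiesterase, from 21.7 ± 2.73 to 182 ± 21.98 CPM (3.07). Il7r, the interleukin-7 receptor, went from 198, 212, 204 and 180.3 to 589, 510.3, 604 and 621 CPM (1.55, adjusted p = 4.96e-09). None of these 4 genes overlapped between the groups. Tcf7, Lef1 and Klf2, transcription factors of resting T cells, rose by 0.94, 0.70 and 0.89. Id3, an inhibitor of E proteins, fell by 0.75, and Itga6 was called lower only as deposited (adjusted p = 0.209 with the trend removed). The lower count was also 1 without WT 1 or double-deficient 4 or 5.

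Receptors for homing shifted in both directions, with 16 of 26 called higher and 3 lower in both fits. Ccr9, the gut homing receptor, rose from 13.2, 12.9, 10.5 and 9.35 to 89.5, 117, 67.96 and 62.6 CPM (2.88, SE 0.22, adjusted p = 2.39e-07), and Ccr2, a receptor for inflammatory chemokines, from 32.6 ± 7.64 to 138 ± 22.5 CPM (2.08). All double-deficient libraries exceeded all WT libraries in both genes. The 3 that fell were Cxcr5, Ccr8 and Itgae, the integrin CD103, which went from 61.9, 45.2, 56.7 and 63.2 to 13.6, 12.9, 9.696 and 15.98 CPM (−2.13, adjusted p = 7.27e-06).

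The lists of inhibitory receptors and of genes induced by the T cell receptor had more genes called lower than higher. Of 15 tested genes of the inhibitory receptor list 7 fell and 1, Lag3, rose, with a median of −0.07 (−0.17 with the trend removed). The list also holds genes that do not encode receptors, among them Entpd1, Tox and Cd274. Entpd1, the ectonucleotidase CD39, fell from 53.8, 47.5, 54.9 and 47.6 to 26.7, 25.6, 20.6 and 25.2 CPM (−1.06, adjusted p = 8.13e-06), Tox, a transcription factor of exhausted T cells, fell by 0.71, and Cd274, the ligand PD-L1, fell by 0.59. Of 16 genes induced by the T cell receptor 7 were called lower and 2 higher (5 and 2 with the trend removed), with a median of −0.12 in both fits. Those that fell include Tnfrsf9 and Ikzf2, given above with the Treg signature. The immediate-early genes Fos and Ier2, which rose, are counted in another list below. Tnfrsf4, the costimulatory receptor OX40, fell from 370.0, 303, 381 and 363 to 131, 184, 169 and 187 CPM (−1.08, adjusted p = 1.23e-05), and Egr2, an immediate target of the receptor, fell by 0.70. The higher count in that list dropped to 0 without WT 1 or double-deficient 5 and to 1 without WT 3, 4 or 5 or double-deficient 2 or 4. In the NF-kB and TNF receptor list 6 of 21 were called higher and 10 lower (7 and 7 with the trend removed). Tnfrsf1a, the TNF receptor 1, fell from 52.7, 52.5, 54.3 and 51.5 to 32.7, 31.2, 34.8 and 32.1 CPM (−0.69), Cd27 fell by 0.62 and Traf3, an adaptor that restrains the noncanonical pathway, fell by 0.59. Without WT 1 or double-deficient 5 the higher count there was 3.

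In the list of mTOR and PI3K-AKT components the counts turned with the length trend. As deposited, 8 of 41 were called higher and 12 lower (median −0.11), and with the trend removed 14 higher and 5 lower (median 0.00). In both fits 8 rose and 5 fell, shares near the 14.8% and 12.2% of all genes. The mTOR complex 2 binding partner Prr5l rose from 4.598, 3.39, 4.26 and 3.24 to 56.6, 75.2, 73.4 and 71.5 CPM (4.16, SE 0.16, adjusted p = 1.46e-10), and Sgk1, a kinase downstream of it, from 37.9, 67.7, 45.5 and 57.8 to 226, 166, 200.3 and 229.5 CPM (1.98, SE 0.19, adjusted p = 4.58e-06). Neither gene overlapped between the groups. Phlpp1, which dephosphorylates AKT, fell from 64.4, 57.6, 60.6 and 51.98 to 10.7, 10.6, 9.84 and 9.79 CPM (−2.51, SE 0.12, adjusted p = 1.04e-09). In Foxp3-deficient cells Prr5l, Sgk1 and Phlpp1 stood at 40.1 ± 6.62, 214 ± 53.6 and 12.6 ± 1.57 CPM. In the same fit, double-deficient differed from Foxp3-deficient cells by 0.79 (adjusted p = 0.00143), −0.06 (adjusted p = 0.834) and −0.30 (adjusted p = 0.0736) in these genes.

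Of the subunits of the PI3K enzymes, Pik3cd and Pik3r5, a catalytic and a regulatory subunit of leukocytes, rose by 0.57 and 0.91. Pik3ca and Pik3r1, a catalytic and a regulatory subunit that are broadly expressed, fell by 0.51 and 0.56. Pik3ip1, an inhibitor of PI3K, rose by 0.60. Among FOXO factors, Foxo1 fell from 594 ± 54.4 to 378 ± 41.98 CPM (−0.65, adjusted p = 0.000673) while Foxo3, at a lower level, rose from 11.7 ± 2.37 to 34.3 ± 12.95 CPM (1.55, adjusted p = 0.000386). Mtor and Rptor, the kinase and the subunit that defines mTOR complex 1, were called lower as deposited (−0.55 and −0.69) and lost the call with the trend removed (adjusted p = 0.0629 and 0.0796). Mapkap1, another subunit of mTOR complex 2, stood at 111 ± 12.5 and 105 ± 6.29 CPM (adjusted p = 0.566).

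Genes of protein synthesis and respiration, most of them short, were higher in part. Of 76 ribosomal protein genes 35 were called higher and 0 lower (34 and 1 with the trend removed), with medians of 0.50 and 0.44. Over all 77 listed genes the summed level was 3507 to 4651 CPM in WT and 5926 to 7035 CPM in double-deficient libraries. Reads with no unique alignment are not in these counts, and their share differed between the groups, as given above. The part of that share in the ribosomal counts was not tested. Rpl4 went from 889, 988, 878 and 1025 to 1415, 1495, 1393 and 1515 CPM (0.62, adjusted p = 0.000839), without overlap. Of 68 nuclear genes of oxidative phosphorylation 21 were called higher and 0 lower (26 and 1 with the trend removed), with medians of 0.37 and 0.30, for example Atp5b, the catalytic subunit of ATP synthase (1259 ± 52.01 to 1620.3 ± 63.6 CPM, 0.36), and Uqcrfs1, a subunit of complex III (0.75). Of the 7 tested mitochondrially encoded genes 0 passed as deposited, and 2, mt-Nd5 and mt-Nd6, were called lower with the trend removed. Both higher counts were smaller with fewer libraries. That of the ribosomal list was 18 without WT 1, 14 without WT 4, 23 without double-deficient 3 and 20 without double-deficient 5. That of the oxidative phosphorylation list was 11, 8 and 7 without WT 1, 3 and 4, and 9, 12 and 10 without double-deficient 3, 4 and 5.

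Glycolysis genes were called in both directions. Of 24, 4 were higher and 4 lower (6 and 4 with the trend removed, 7 higher with the length trend alone removed), a share near that of all genes. Slc2a3, the glucose transporter GLUT3, fell from 222, 197, 204 and 197 to 82.7, 89.9, 80.7 and 81.5 CPM (−1.29, SE 0.08, adjusted p = 1.12e-08) and Slc16a3, a lactate exporter, fell by 1.52. Ldha, which makes lactate, rose from 673, 728, 679 and 794 to 954, 1115, 996 and 1049 CPM (0.52, adjusted p = 0.000967), and Pkm, a pyruvate kinase, rose by 0.32; the higher count was 2 without WT 3, WT 4 or double-deficient 5. In the TCA cycle 6 of 23 rose and 0 fell (10 and 0 with the trend removed), among them Idh2, a mitochondrial isocitrate dehydrogenase (0.58), and Sucla2, a succinate-CoA ligase subunit (0.60). Of 27 genes of sterol and fatty acid synthesis 4 were called higher and 1 lower (8 and 1 with the trend removed), the 1 lower call being lost without double-deficient 2 or 5. As deposited, the share called higher was near that of all genes. Sqle, an early enzyme of the sterol branch, rose from 62.2 ± 8.72 to 92.03 ± 4.62 CPM (0.56). Proliferation genes were called higher in 16 of 32 cases and lower in 1 (19 and 1 with the trend removed), or 10 higher without WT 3. Stmn1, a tubulin regulator, rose from 1.31, 2.52, 1.91 and 2.15 to 5.84, 6.53, 5.81 and 6.18 CPM (1.63), and E2f1, a transcription factor of the G1 to S transition, rose by 1.26. Of 22 genes of apoptosis and survival 3 were called higher and 3 lower (5 and 4 with the trend removed), shares near those of all genes. Among them were Mcl1, a survival protein (higher by 0.36), and Bcl2l1, which encodes BCL-XL and fell by 0.52.

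Immediate-early and heat shock genes, which respond to cell handling as well as to stimulation, were called higher in 10 of 16 cases and lower in 0 (9 and 0 with the trend removed), with a median of 1.59. Ier2, an immediate-early gene, stood at 430.2, 512, 487 and 437 CPM in WT and 1392, 1306, 1483 and 1632 CPM in double-deficient libraries (1.64, SE 0.26, adjusted p = 0.000636). Fos, a subunit of AP-1, stood at 115, 773, 264 and 608 and 2551, 1958, 2053 and 2151 CPM (2.31, SE 0.61, adjusted p = 0.0168). Hspa1a, an inducible HSP70 gene with a near-identical copy, Hspa1b, stood at 0.227, 55.9, 3.75 and 25.4 and 358, 360.2, 322 and 479 CPM (4.18, SE 1.34, adjusted p = 0.0399). The double-deficient libraries were alike and all above WT in these 3 genes, while the WT libraries of Fos and Hspa1a spread widely. The summed level of the 16 genes was 5184 to 12958 CPM in WT and 21568 to 25983 CPM in double-deficient libraries. In Foxp3-deficient libraries it was 7866 to 29348 CPM, a range that overlaps both. Against Foxp3-deficient cells 2 of the 16 genes were called higher and 0 lower, where 13.9% of all genes were higher and 13.3% lower. The share called higher was near that of all genes. The count of 10 fell to 4 and 3 without WT 1 and WT 4, and to 5, 5 and 3 without double-deficient 2, 4 and 5. The call of Hspa1a was lost when any single WT or double-deficient library but WT 3 was left out (5.25 without WT 3). The call of Fos was lost without WT 4, and that of Jund, another AP-1 subunit, without WT 1 or double-deficient 5. The part of this stress level in the other results was not tested.

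**Figure D4:**
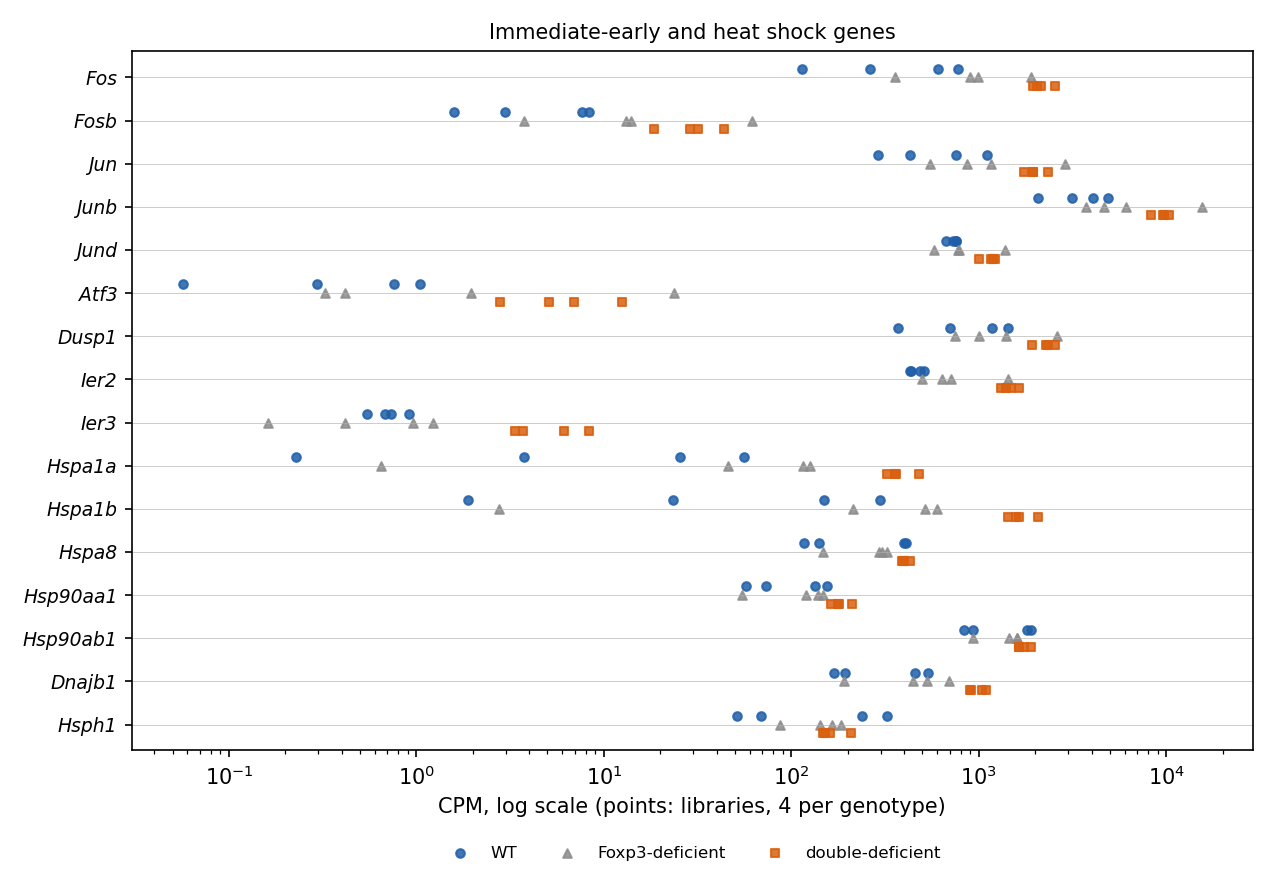
CPM on a log axis (x) of the 16 immediate-early and heat shock genes (y), one point per library, 4 per genotype (circles WT, triangles Foxp3-deficient, squares double-deficient). In Fos, Ier2 and Hspa1a the double-deficient points lie together above all WT points, and the WT points of Hspa1a run from 0.227 to 55.9 CPM.

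Of 37 interferon-stimulated genes 5 were called higher and 9 lower (6 and 9 with the trend removed), with a median of −0.01. Of all genes 15.8% were higher and 16.8% lower (18.9% and 13.0% with the trend removed), with a median of −0.03. The share called higher and the median were thus near those of all genes. Oas1a, an antiviral 2'-5' oligoadenylate synthetase, stood at 35.3, 36.2, 37.9 and 33.9 CPM in WT and 11.8, 16.1, 12.97 and 11.3 CPM in double-deficient libraries (−1.45, SE 0.16, adjusted p = 7.79e-06). Gbp5, an interferon-induced GTPase, fell from 52.6, 47.1, 51.4 and 52.9 to 33.8, 31.3, 35.1 and 25.3 CPM (−0.70, SE 0.13, adjusted p = 0.000839). In contrast, Ifi47, another such GTPase, rose from 438, 547, 447 and 601 to 755, 950.1, 788 and 847 CPM (0.72, SE 0.14, adjusted p = 0.00178). The groups did not overlap in any of the 3 genes.

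The promoters of the interferon list were searched on both strands for the core of the interferon-stimulated response element (GAAA, any 2 bases, then GAAA) in RefSeq windows of 300 bases (250 before to 50 after the start, GRCm38.p6). Of 37 genes 26 matched by symbol, with 32 windows, and 15 windows (46.9%) held the core against 3.44% of all 32851 windows. Of the 15 genes with a match 3 were called higher and 5 lower. Below, the core is printed in capitals. In Oas1a it has 2 overlapping matches beginning 20 bases before the start. In Gbp5 its reverse complement begins 165 bases before the start. The windows of Oas1a and Gbp5 are shown because both genes were named from this list and hold the core, whatever their direction of change. They lie at chr5:120907476-120907775, minus strand, and chr3:142496684-142496983, plus strand, and are given 5′ to 3′ along the gene.
Oas1a: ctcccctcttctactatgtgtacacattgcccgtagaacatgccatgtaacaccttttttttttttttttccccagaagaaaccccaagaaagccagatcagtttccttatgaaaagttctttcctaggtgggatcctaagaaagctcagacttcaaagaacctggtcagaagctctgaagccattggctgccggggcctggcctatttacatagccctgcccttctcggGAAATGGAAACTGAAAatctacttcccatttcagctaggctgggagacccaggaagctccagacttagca
Gbp5: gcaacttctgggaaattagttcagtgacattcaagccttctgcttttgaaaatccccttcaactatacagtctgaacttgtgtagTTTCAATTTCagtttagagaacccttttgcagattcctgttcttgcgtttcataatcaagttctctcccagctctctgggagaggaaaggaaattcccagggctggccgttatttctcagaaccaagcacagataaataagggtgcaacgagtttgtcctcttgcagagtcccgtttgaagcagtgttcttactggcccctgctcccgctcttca
The forkhead core TGTTTAC, searched on both strands, was in 3 of 26 windows of the Treg signature (11.5%, against 3.65% of all windows). Of the 3 genes with this match 0 were called higher and 1 lower. The sterol regulatory element TCACNCCAC was in 1 of 24 windows of the sterol list (4.17%, against 1.24%), and that 1 gene was called in neither direction. Shares that rest on 3 windows and 1 window are uncertain. A match is a string of letters and not a measured binding site.

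Markers of other cells were read for the purity of the sorts. CD4 T cell markers were high in all libraries, with Cd4 at 757 ± 20.3 CPM in WT and 867 ± 94.1 CPM in double-deficient and Cd3e at 1211 ± 24.2 and 1073 ± 40.8 CPM. Of 10 such genes 3 were called higher (Trbc2, Trbc1 and Cd3d) and 1 lower (Cd28), or 4 and 2 with the trend removed. The higher count was 1 without WT 1, 3 or 4 or double-deficient 5, and the call of Cd28 (−0.25) was lost without double-deficient 4. Of 8 tested B cell markers 7 fell, with a median of −1.21, and their summed level over all 13 listed genes was 1285 to 1517 CPM in WT and 781 to 952 CPM in double-deficient libraries. Ighm, the immunoglobulin heavy chain gene, made up most of it and stood at 1414, 1233, 1455 and 1371 and 893, 915, 851 and 751 CPM (−0.68, adjusted p = 4.40e-05). Ms4a1 and Pax5, which define B cells, had 4 and 2 reads over all WT libraries and 33 and 2 over all double-deficient libraries. Cd22, a B cell lectin, fell by 2.75 (−3.56 without double-deficient 3).

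Plasma cell markers summed to 238 to 256 CPM in WT and 220.3 to 255 CPM in double-deficient libraries, most of it from Xbp1, a transcription factor that T cells also express. Jchain, which joins secreted immunoglobulin, stood at 3.12, 0.554, 0.2203 and 1.18 CPM in WT and 7.62, 12.3, 13.6 and 13.02 CPM in double-deficient libraries (3.23, adjusted p = 0.00183; 4.15 without WT 1), and Sdc1 rose from 0.6501 ± 0.264 to 2.19 ± 0.291 CPM. The myeloid markers summed to 0.493 to 1.93 CPM in WT and 3.22 to 3.88 CPM in double-deficient libraries, with Fcgr3, an Fc receptor, called higher (3.25; 4.23 without WT 4); both tested members were called with the trend removed or without WT 1. Dendritic cell markers summed to 146 to 176 CPM in WT and 79.5 to 103 CPM in double-deficient libraries. Of dendritic cell markers Cd74 fell and Cst3, which most cells express, was higher (0.58), a call lost when any single library other than WT 5 or double-deficient 2 was left out. Erythroid markers had too few reads to be tested, and of platelet markers Itgb3, an integrin that T cells also carry, rose from 79.7 ± 3.04 to 159 ± 21.3 CPM. Of 7 NK and CD8 cell markers 3 were higher and 0 lower (4 and 0 with the trend removed; 1 lower without double-deficient 3): Klrk1, the receptor NKG2D (6.62; 7.99 without WT 1), Gzma, a granzyme (3.27), and Cd8b1 (0.50). Their summed level was 38.1 to 45.0 CPM in WT and 52.5 to 56.8 CPM in double-deficient libraries. In the list of cytotoxic granules and NK receptors 5 of 13 rose and 1, Ctsw, a cathepsin (−0.46), fell; the lower count was 2 with the trend removed and without double-deficient 3 or 5. Klrd1, the receptor chain CD94, gave 150 reads against 3 in WT, or 51.7 times as many (95% interval of the counts 17.4 to 254).

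To show where double-deficient cells differ from the rest of the series, genes were taken that were called in both fits against WT and also against Foxp3-deficient cells. Against Foxp3-deficient cells alone, 1251 genes were called higher (9.57%) and 1064 lower (8.14%) in both fits. Gbp2b, an interferon-induced GTPase, stood at 22.1, 22.3, 26.4 and 24.1 CPM in WT, 18.2, 34.00, 20.6 and 17.2 CPM in Foxp3-deficient 1, 3, 4 and 5, and 157, 232, 175 and 126 CPM in double-deficient libraries. Double-deficient cells were higher than Foxp3-deficient by 2.95 (SE 0.22, adjusted p = 1.64e-06) and than WT by 2.86 (adjusted p = 3.00e-07). Lgals3, the galactoside-binding lectin galectin-3, stood at 4.82, 3.201, 6.46 and 4.04, 4.01, 9.08, 7.54 and 21.7 and 40.8, 68.5, 88.6 and 65.1 CPM in the 3 groups (2.62 against Foxp3-deficient, adjusted p = 0.00173). In both genes the double-deficient libraries lie above all 8 others. Fgl2 was at 7.903, 5.95, 8.52 and 9.71 CPM in Foxp3-deficient libraries, below WT, and Il10 at 1.14, 10.99, 2.58 and 4.81 CPM; double-deficient libraries exceeded them by 3.72 and 3.08 (adjusted p = 8.69e-09 and 0.00575). Plac8, Pcsk1 and Cysltr1 exceeded Foxp3-deficient cells by 4.02, 2.78 and 2.86, beyond rises over WT.

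Lower than in both other groups was Zfr, an RNA-binding zinc finger protein (chromosome 15, 12117831 to 12185683, the chromosome that also carries Rictor). It stood at 173, 171, 168 and 187 CPM in WT, 156, 148, 165 and 164 CPM in Foxp3-deficient and 59.7, 51.5, 52.7 and 57.7 CPM in double-deficient libraries (−1.66 against WT, SE 0.08, adjusted p = 6.39e-10; −1.51 against Foxp3-deficient, adjusted p = 8.69e-09). Bcl6 was at 39.9, 38.2, 52.9 and 60.3 CPM in Foxp3-deficient cells, close to WT, and double-deficient cells differed from them by −1.72 (SE 0.14, adjusted p = 2.69e-06). Cxcr5 differed from Foxp3-deficient by −1.45 (adjusted p = 0.00865) and Rab6b by −3.44 (adjusted p = 0.000968). Abca1, a cholesterol exporter, was at 27.8 ± 4.97, 22.9 ± 4.68 and 9.104 ± 1.303 CPM in WT, Foxp3-deficient and double-deficient cells. Mmp14, a membrane-bound matrix protease, was at 7.82 ± 2.05, 29.95 ± 11.2 and 3.98 ± 0.684 CPM, and Eya2, a phosphatase and transcriptional coactivator, at 25.1 ± 3.16, 42.3 ± 7.36 and 16.3 ± 2.07 CPM. Spsb1, a substrate adaptor of a ubiquitin ligase, was at 24.2 ± 2.59, 39.4 ± 2.49 and 16.4 ± 2.79 CPM. In Mmp14, Eya2 and Spsb1 the Foxp3-deficient libraries lay above WT and the double-deficient libraries below it.

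**Figure D5:**
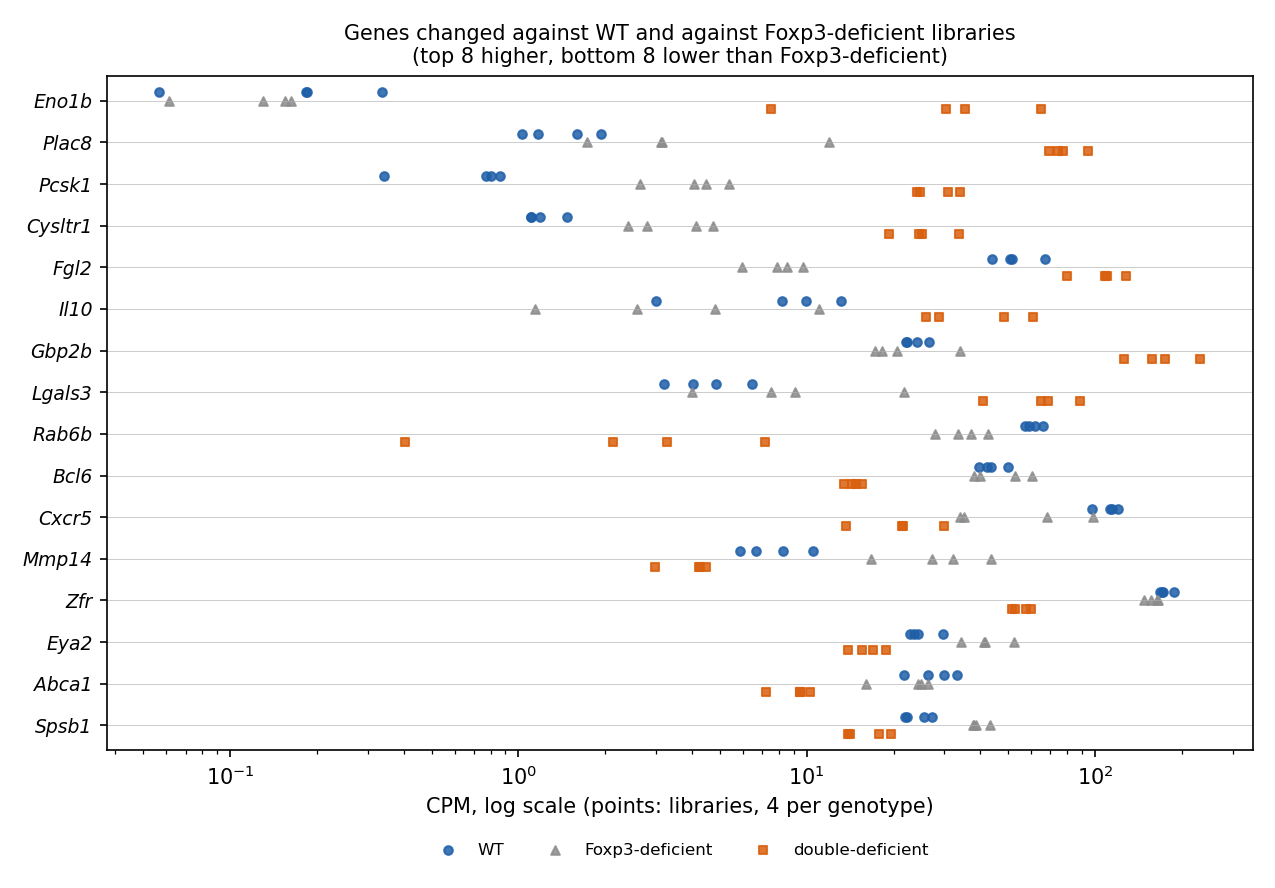
CPM on a log axis (x) of 8 genes higher and 8 genes lower in double-deficient cells than in both WT and Foxp3-deficient cells (y), one point per library, 4 per genotype (circles WT, triangles Foxp3-deficient, squares double-deficient). Fgl2 is lowest in Foxp3-deficient libraries and highest in double-deficient ones, and in Zfr and Bcl6 the double-deficient points lie below all others.

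Some calls depended on the length trend. Of the genes called as deposited, 134 higher and 589 lower lost the call with the trend removed, and 535 higher and 96 lower were called only then. Chd9, a chromatin remodeller, stood at 37.7, 39.03, 43.8 and 41.2 CPM in WT and 23.9, 25.3, 26.2 and 23.1 CPM in double-deficient libraries (−0.72, adjusted p = 8.97e-05), and at −0.25 with the trend removed (adjusted p = 0.0695). Akap13, a scaffold of protein kinase A, went from −0.68 to −0.18 (adjusted p = 0.0511) and Rhoh, a GTPase of T cell receptor signalling, from −0.48 to −0.23 (adjusted p = 0.0768). Among genes called higher, Tipin, a replication fork protein, went from 0.49 to 0.27, Abhd17b, a depalmitoylase, from 0.37 to 0.22, and Gnai3, a G protein subunit, from 0.27 to 0.15. The direction was the same in both fits in these 6 genes, and the difference with the trend removed was smaller.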

How the data were processed

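The authors deposited raw read counts per gene, per the labels from splenic Treg RNA amplified with SMART-Seq v4; the series text and the sample protocol name different library kits. Alignment to mm10 (GRCm38) used STAR 2.5.1b and counting used HTSeq over Gencode genes, per the submitters' processing notes. Which Gencode release and strand option were used is not given in the sources used here. Without a known strand setting, reads of overlapping antisense genes cannot be told apart.

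Groups followed the labels. Counts of all 12 libraries (3 genotypes) were filtered with filterByExpr, scaled by TMM and fitted in edgeR 4.0.16 (quasi-likelihood, robust; contrast double-deficient minus WT). No replicate pair agreed within sampling noise. A second fit removed each library's smooth trend (splines, 5 degrees of freedom) of log2 CPM (prior count 2) with exonic length and GC content, taken from GENCODE M21 on GRCm38; 97.5% of genes matched, and 122 tested genes without a length were left out. Ratios of few reads carry 95% intervals that cover counting error only.

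The comparison, the 31 gene lists and the rule for named genes were chosen with earlier results of these data known. The rule took Foxp3 and Rictor; the 12 largest rises and falls called in both fits (mean of at least 10 CPM, no overlap); up to 4 members per list called in both fits, by adjusted p; 3 genes per direction that lost the call with the trend removed; and 8 per direction that also differed from Foxp3-deficient. Some genes that the rule takes are not reported here. Chosen after their values were seen were Ctla4, Tnfrsf18, Nrp1, Gpr83, Il2ra, Epsti1, Eno1, Il17f, Il5, Il22, Ifng, Lta, Stat3, Il6ra, Tbx21, Il21, Pdcd1, Tcf7, Lef1, Klf2, Id3, Itga6, Hspa1b, Cd4, Cd3e, Ms4a1, Pax5, mt-Nd5, mt-Nd6, Pik3cd, Pik3ca, Pik3r1, Pik3ip1, Foxo1, Foxo3, Mtor, Rptor and Mapkap1. Alternatives were RLE scaling, no filter, a stricter filter (1 CPM in 4 libraries, mean of 5 CPM), DESeq2 1.42.0, limma-voom (3.58.1), a replicate block, the trend removals, a fit of only the groups compared, and leaving out each library.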

Additional observations from a re-analysis of the deposited data

Results flagged for a closer look

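In 278 groups of 4 libraries, mainly those of the 134 named genes, the gap of 1 library to the others was checked. Dixon's ratio at its 95% critical value was used. It was passed by 10 groups (3.6%), where chance flags about 1 in 20. In WT, Emp1 stood at 2.94 CPM in WT 4 (2.23 to 2.33 in the others), Ggt5 at 0.616 CPM in WT 3 (0.927 to 0.965), Tnfrsf1b at 509.8 CPM in WT 3 (625 to 641) and Tnfsf8 at 98.0 CPM in WT 1 (109 to 111). Il17a stood at 0.0367 CPM in WT 4 and 0 in the others, Uqcrc2 at 169.7 CPM in WT 5 (145 to 147) and Cd8b1 at 21.1 CPM in WT 1 (17.1 to 17.6). In double-deficient cells, Klrg1 stood at 15.1 CPM in double-deficient 5 (5.36 to 6.65), Stat4 at 198 CPM in double-deficient 3 (175 to 178) and Ccr4 at 53.7 CPM in double-deficient 3 (44.8 to 45.5).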

How the results depend on the processing

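Against 2084 genes called higher and 2215 lower, RLE scaling gave 2123 and 2182, no filter 1913 and 2006, the stricter filter 1695 and 1818, DESeq2 2376 and 2398, limma-voom 2171 and 2341, and a fit of only the 2 groups 2811 and 2826. Leaving out 1 library gave 1475 to 1951 and 1614 to 2104. With the trend removed, an alternative chosen after seeing the data, leaving out 1 library gave 1720 to 2238 higher and 1264 to 1574 lower; the lower count was 1332, 1368 and 1264 without WT 1, 3 and 4, and 1385, 1362 and 1349 without double-deficient 3, 4 and 5. Same-numbered WT and double-deficient libraries did not deviate together (correlations −0.05, −0.00 and 0.04). Pairing of either group with the Foxp3-deficient libraries, which carry the same numbers as WT, was not tested. With the number as a replicate block 1704 genes were higher and 1790 lower (1 lower in the Th1 program and 4 among B cell markers). With the trend removed too, the counts were 1985 and 1359. The length slope difference ranged from −0.081 to −0.060 when 1 library was left out; it was −0.074, −0.067, −0.066 and −0.072 without WT 1, 3, 4 and 5, with exact p = 0.0571. Rictor turned to 0.27 with the length trend removed. The cause of these changes was not tested. List counts resting on low genes shrank under the stricter filter: 4 higher in the Th17 program, 1 among cytotoxic genes, 4 lower among B cell markers and 0 higher among plasma cell markers. Without a filter 13 oxidative phosphorylation, 19 ribosomal and 3 stress genes were higher, and in the fit of only the 2 groups 44 oxidative phosphorylation, 13 mTOR and PI3K-AKT and 10 Th1 genes. Depth limits what can be said of Il5, Il22 and other genes with few reads.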
